A study of Gallus gallus with 24 samples.

Results

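A set of 65 probe sets gave a higher level in the left ventricle than in the right in normal chick embryos at embryonic day 6 (E6), E8 and E10, out of 38535 probe sets on the array. The members were chosen from the deposited log2 values. Of the 37693 probe sets whose IDs start with Gga, 17594 reached a mean of 6 in their brightest pool. Of these, 543 were at least 0.75 higher in the left pool at E6, 105 of them also at E8 and 69 also at E10, which is 0.392% of the 17594; E8 taken alone gave 2.18%. The 65 retained ones differed by at most 0.7 between the banded and the normal E5 pool, which left out 4. Since these values chose the members, the normal left minus right differences are given as a description and were not tested. The smallest differences just inside the limit were 0.76 and 0.77, and those just outside were 0.74.

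Expression was measured on one-colour arrays in 12 pools of chick ventricle, each made from 6 to 12 specimens and hybridised to 2 arrays. The 9 pools labelled normal held both ventricles at E4, E5 and E6, and a single ventricle, left or right, at each of E6, E8 and E10. In the operated embryos, conotruncal banding, which narrows the outflow tract, was done at day 4 and both ventricles were taken at E5; partial ligation of the left atrial appendage was also done at day 4, with each ventricle taken separately at E8. Each condition had 1 pool, no pool was labelled as sham-operated, and the only error of a pool is the SD of its 2 technical arrays. Over the members this SD was between 0.115 and 0.165 in 11 pools and 0.256 in the right E10 pool. Fewer cells of a type and less RNA per cell cannot be told apart in pooled tissue.

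The left ventricle of the embryonic heart forms largely from the first-formed heart tube, and much of the right ventricle is added later from the second heart field. The T-box factor TBX5 and the bHLH factor HAND1 are known for a higher level on the left side in chick and mouse. Partial ligation of the left atrium in the chick is known to reduce filling of the left ventricle, which then stays small while more blood passes through the right ventricle.

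A gene symbol was listed for 53 of the 65 members, which stood for 49 genes, and 12 had none. All 53 symbols were found in RefSeq by their gene number. TSPAN7 was represented by 3 members and LINGO3 and TRIM36 by 2 each, so that probe sets of 1 gene are not separate observations. The named genes are described below in groups by role that were drawn up with the members known. The groups held 10 genes of cell adhesion and axon guidance, 8 of calcium handling, channels, receptors and transport, 6 secreted or matrix-related genes, 9 of metabolism and mitochondria, and 16 others.

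The identity of the pools was examined with marker genes. Cardiomyocyte genes were bright in all pools when summed: the log2 of the summed level of 13 measured genes lay between 18.36 and 18.62. Such a sum follows its brightest genes, and PLN of this list lay between 7.12 and 7.74. TBX5 stood at 7.07 in the left and 7.15 in the right pool at E6, at 8.03 and 5.71 at E8 and at 6.76 and 4.56 at E10, so it was higher on the left only at the later ages and was no member. HAND1 stood at 6.75 and 6.32 at E6, 7.43 and 6.21 at E8 and 6.97 and 6.22 at E10, higher on the left each time but by 0.42 at E6. GJA5, a connexin, was higher in the left pool by 0.48, 0.30 and 0.18. In the ligated pair TBX5 was at 8.84 on the left and 6.84 on the right and HAND1 at 4.88 and 3.36. The labels of left and right were thus matched by TBX5 at E8 and E10 and in the ligated pair. TBX5 gave no left-right difference at E6. Genes listed for the right ventricle and outflow did not all lie higher on the right. TBX20 was at 10.88 on the left and 10.46 on the right at E6, 10.50 and 11.31 at E8, and 10.54 and 11.42 at E10. HAND2 was at 10.70 and 10.84, 10.40 and 10.11, and 10.55 and 10.69 at these ages. ISL1, at most 5.00 in any pool, was higher on the right each time, and FGF10 reached at most 3.07.

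Several members were among the most abundant and the most unequal between the sides. SLN encodes sarcolipin, a small inhibitor of the calcium pump of the sarcoplasmic reticulum that is known in mammals from atrium and skeletal muscle. Its level was 9.76 at E4, 11.30 at E5 and 11.48 at E6 in the normal pools of both ventricles and 11.45 after banding. In the left ventricle it was 12.31 at E6, 12.25 at E8 and 12.07 at E10, against 10.24, 10.34 and 10.38 in the right. The left pools of SLN were steady and lay above every other normal pool, and the E6 pool of both ventricles lay between left and right.

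CADM2, an immunoglobulin-type adhesion molecule of neurons, followed the same order at 9.97, 10.77 and 10.95 in the pools of both ventricles at E4, E5 and E6. Its left pools were at 11.66, 11.26 and 10.96 and its right pools at 9.85, 9.59 and 8.84 at E6, E8 and E10. HTR2A, a serotonin receptor, was dim: 6.19, 4.94 and 4.55 on the left and 3.48, 2.38 and 2.43 on the right at these ages, and between 4.52 and 5.02 in all pools of both ventricles. Its right pools lay below the signal level used as a filter, 4.09. That was so in at least 1 right pool for 12 of the 65 members.

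A wide and widening gap was seen at the members of BRINP2 and DOK5. BRINP2, known as a neural gene induced by retinoic acid and bone morphogenetic protein, was at 9.31, 9.71 and 9.57 in the pools of both ventricles at E4, E5 and E6. It was at 9.96, 9.85 and 8.84 in the left ventricle at E6, E8 and E10, and at 8.17, 6.18 and 4.04 in the right. The left minus right difference of BRINP2 was therefore 1.79, 3.67 and 4.80, the largest of the set at E8, with right pools lower at each later age. Its right E10 pool lay below the filter level of 4.09, so the size of the last difference is uncertain. DOK5, a docking protein of receptor tyrosine kinases, was at 9.25, 8.76 and 8.30 on the left and 7.75, 6.09 and 3.90 on the right, the last also below that level. A dimmer probe set of DOK5, at most 5.38 in any pool, narrowed instead, with left minus right differences of 0.95, 0.53 and -0.01. Both of its E10 pools lay below the filter level. LYRM7, which helps assemble a complex of the mitochondrial respiratory chain, differed by 1.65, 2.90 and 3.28, from 9.28 on the left and 5.99 on the right at E10. The probe sets of LYRM7 disagree, however: a further one was at -0.05, 0.64 and 0.21.

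ADAMTS20 had a course of its own among the named members. This secreted protease, known to cleave the matrix proteoglycan versican, was at 8.09 in the left and 5.00 in the right pool at E6, at 6.69 and 5.15 at E8 and at 6.13 and 4.41 at E10. Its difference narrowed from 3.09 to 1.72, and it was the only member whose left minus right was narrower by at least 1 at E10 than at E6. The 3 of its 4 other probe sets that reached the level of 6 narrowed too, from 2.83, 2.64 and 2.05 at E6 to 0.65, 0.60 and -0.15 at E10. A gap wider by at least 1 at E10 than at E6 was found at 7 members, and a wider one of any size at 42 of 65. SBSPON, a secreted protein with somatomedin B and thrombospondin domains, kept an even gap of 1.68, 1.70 and 1.59 while its left level went from 10.18 at E6 to 11.31 at E10. Of the members with no gene name, 2 probe sets of a shared cluster differed by 2.13, 1.58 and 2.73 and by 3.48, 2.12 and 3.56.

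**Figure D1:**
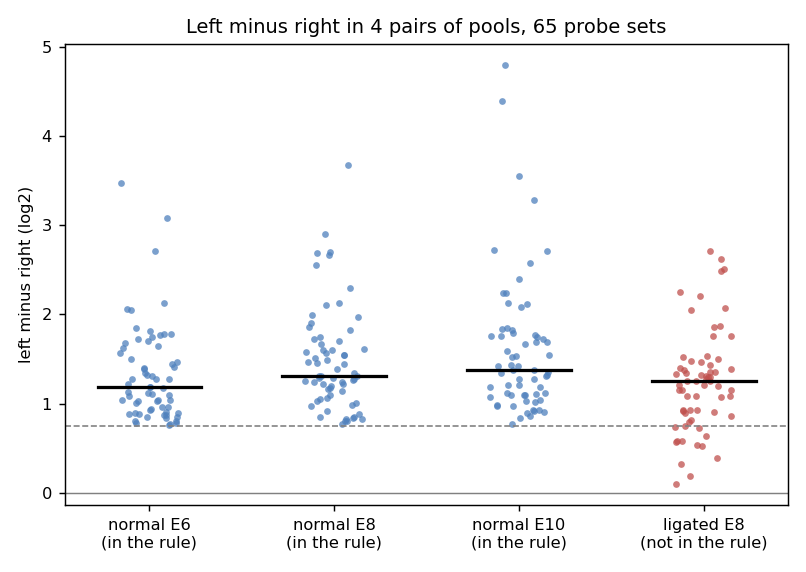
Left minus right difference on the log2 scale for the 65 members in the normal pairs at E6, E8 and E10 (blue) and in the ligated pair at E8 (red). Each point is 1 probe set, black bars are medians (1.18, 1.31, 1.38 and 1.25) and the dashed line marks 0.75. The normal differences chose the members and lie above it by construction. The ligated difference was not used for the choice, and 53 of 65 points are at or above the line.

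The left minus right difference of the ligated pair had no part in choosing the members. The ligated levels did count for the brightest pool, which was the ligated left one at 7 members. In the ligated pair all 65 were higher in the left ventricle, against 49.2% of the 17594. Without either array of each pool it was 64. The difference was at least 0.75 at 53 of them, against 2.05% of the same 17594, and at least 2-fold with arrays that did not overlap at 43, against 1.04% (0.875% were lower). Both left arrays lay above both right arrays at 63 of 65 members, against a background of 31.3%. The median difference was 1.25, with a range of 0.09 to 2.71, whereas the median of the 17594 was -0.00. It was smaller than in the normal E8 pair at 46 members, but the members had been chosen for a large difference in that pair. The differences were also measured on the same 2 ligated pools, so the members do not repeat the comparison.

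No single member passed a test in the ligated pair. In a limma fit over all 12 pools, in which the ligated pair had its own term, 0 of 65 had an adjusted p under 0.05 and 0% of all 20335 probe sets tested were called higher on the left and 0.00984% lower. The lowest adjusted p among the members was 0.386, at SLN, with a difference of 2.05 ± 0.21 (SE, 1 ligated pair). At an unadjusted p under 0.05, 42 of 65 were higher on the left and 0 lower, against 1.79% and 1.42% of all. The fit had 3 residual degrees of freedom and took its spread from the normal pools. Part of that spread is how much the normal left minus right varied with age, and the rule had chosen the members by that difference. The members' unadjusted counts and SEs are therefore not comparable with the shares over all. On simulated pools for 20335 probe sets it recovered 0 of 200 ligated left-right differences of 1 and 96 of 200 differences of 2.

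The widest difference in the ligated pair was that of CDH22, a cadherin of cell-cell adhesion. Its level was 8.01 in the ligated left and 5.30 in the ligated right pool, close to the normal E8 values of 8.16 and 5.46. Then came ATP6AP1L at 7.49 and 4.87, HTR2A at 4.68 and 2.17 (the right one below the filter level), LYRM7 at 9.31 and 6.82, and DOK5 at 9.04 and 6.78. SLN stood at 12.46 and 10.41, as far apart as in normal hearts at E6. BRINP2 was at 9.24 and 7.04, so that its gap of 2.21 was narrower than the normal 3.67 at E8.

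The smallest differences in the ligated pair were found at CDC42SE1, SLC30A10, PCASP3, SNX22 and CSTA. CDC42SE1, a small effector of the GTPase CDC42, was at 3.81 in the ligated left and 3.72 in the ligated right pool, both below the filter level. SLC30A10, known in mammals as a manganese exporter, was at 7.46 and 7.27, PCASP3 at 5.53 and 5.21, SNX22, a sorting nexin, at 5.73 and 5.34, and CSTA, an inhibitor of cysteine proteases, at 11.44 and 10.91. At CSTA the arrays varied little, with an SD of at most 0.11 in any pool, and its normal differences of 1.13, 1.14 and 1.32 stood beside 0.53 after ligation. For SLC30A10 the ligated right pool was 1.63 above the normal right one.

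The role groups were not tested against each other. The median ligated left minus right was 1.21 over 13 probe sets of adhesion and guidance, 1.24 over 8 of calcium, channels and transport, 1.26 over 6 secreted or matrix genes, 1.25 over 9 of metabolism, 1.09 over 17 others and 1.28 over the 12 without a name. At least 0.75 was reached at 12, 6, 4, 8, 12 and 11 of these. In the first group, the receptor EPHA7 differed by 0.91, its ephrin ligand EFNA5 by 0.58 and the basement membrane netrin NTN4 by 1.16. The neuronal adhesion genes CNTN4, NRXN3 and TENM2 differed by 1.07, 1.53 and 0.86. Among channels and transporters, ABCC8, the sulfonylurea receptor of potassium channels, differed by 0.93 and the gap junction gene GJD2 by 0.64. A further probe set of GJD2, also bright enough for the rule, differed by only 0.11. The zinc transporter TMEM163 differed by 1.30 and the lactate transporter SLC16A3 by 1.21. Among metabolic genes, PPP1R3B, which targets a phosphatase to glycogen, differed by 1.08, GATM of creatine synthesis by 1.15 and SQRDL of mitochondrial sulfide oxidation by 1.36.

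The mirror rule, with the right ventricle higher by at least 0.75 at each age, gave 149 probe sets. In the ligated pair 69 of them, or 46.3%, were at or below -0.75, with a median of -0.68, against 81.5% and 1.25 for the left members. The normal medians were -1.25, -1.53 and -1.57 at E6, E8 and E10 for the right set and 1.18, 1.31 and 1.38 for the left set. Of all 17594, 1.71% were at or below -0.75. Of the right set 55 were at least 2-fold higher in the left pool after ligation and 0 were lower, against 2.38% and 1.71% of the 17594; a low normal left E8 value, the baseline of this change, had chosen them. The difference between the sets has no test, since each comparison had 1 pool in each arm.

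Other probe sets of the same genes were read as a check on the members. Outside the set, 17 probe sets of 11 member genes reached the level of 6. Of these, 15 were higher in the left pool at E6, E8 and E10, against 18.5% of the 17594, and 15 were higher in the ligated left pool, with a median of 0.51. A probe set past all limits on the normal differences would itself be a member. The other probe sets of IL20RA, a cytokine receptor chain, were at 0.40 and 0.70 at E6 beside 0.76 for the member, and at 1.51 and 1.49 at E10 beside 1.67. TMEM63C disagreed at E10, with 1.76 at the member and 0.15 at the other, and CDC42SE1 disagreed at E6, with 0.78 at the member and 0.07 and 0.06 at the others.

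With age, some members were called as rising and some as falling. The others had no call, which does not make them steady. In the limma fit to the 5 stage means of the normal pools, 12 of 65 rose and 13 fell with day, against 5.5% and 6.33% of all 20335 probe sets tested. The median slope was 0.02 per day on the log2 scale, against -0.01 over all. Calls over the whole array rested on the last stage: without E10, 0 of the 65 members and 0 of all 20335 passed. At an unadjusted limma p under 0.05 it was 30 of the 65 and 4485 of the 20335. With no signal filter, 8 members passed, against 2.19% of all probe sets. E4 and E5 had only pools of both ventricles, and E8 and E10 only pools of 1 side. Age and kind of pool thus cannot be told apart except at E6. The E8 and E10 stage means average the log2 levels of left and right. Such an average lies below the log2 level of an even mixture where the sides differ, and the rule chose members that differ. The members' falling slopes are partly set by this, and their counts are not comparable with the shares over all.

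The steepest rises were those of IL20RA, TGM4, NTN4, GAS6 and LOC421856. IL20RA was at 5.12 at E4 and 6.42 at E5, and at 6.91 on the left and 6.15 on the right at E6, 8.41 and 7.13 at E8, and 8.86 and 7.19 at E10. Its slope was 0.45 ± 0.08 per day (SE, 5 stage means, limma adjusted p = 0.029). GAS6, a secreted ligand of the AXL family of receptor kinases, was at 6.98 at E4, 7.86 at E5 and 7.85 at E6 in both ventricles. It reached 10.01 on the left and 8.80 on the right at E10 (slope 0.38 ± 0.04, limma adjusted p = 0.014). GAS6 rose in both ventricles in step, so that its left minus right difference stayed at 1.41, 1.22 and 1.21.

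TGM4, a transglutaminase known from the mammalian prostate, rose from 6.70 at E4 to 10.50 on the left and 8.68 on the right at E10 (slope 0.44 ± 0.06, limma adjusted p = 0.020). LOC421856 rose by 0.38 ± 0.06 per day (limma adjusted p = 0.024). NTN4 had the same slope, 0.38 ± 0.14, but did not pass (limma adjusted p = 0.14): it was at 3.42 at E4, 5.84 at E5 and 7.11 in the left E10 pool, so that most of its difference lay between E4 and E5. The other named genes that rose were CDH22, TRIM36 (a ubiquitin ligase), CYP7B1 of oxysterol metabolism, TENM2, EFNA5 and ACMSD of tryptophan breakdown.

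The steepest fall was that of ATP6AP1L, which stood at 9.28 at E4, 8.50 at E5 and 8.39 at E6 in both ventricles. It was at 9.02, 6.30 and 3.69 on the left and 7.62, 4.33 and 2.78 on the right at E6, E8 and E10 (slope -1.05 ± 0.08, limma adjusted p = 0.0099). Left and right fell together, and both lay below the filter level at E10. BRINP2 fell by 0.53 ± 0.08 per day (limma adjusted p = 0.026). Between E6 and E10 it fell by 4.13 on the right and by 1.12 on the left. NRXN3, a presynaptic adhesion molecule, fell from 9.75 at E4 to 7.45 on the left and 5.66 on the right at E10 (slope -0.51 ± 0.10, limma adjusted p = 0.036).

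TRABD2A, a membrane protease known in Xenopus to inactivate Wnt proteins, fell from 9.99 at E4 to 7.41 on the left and 6.37 on the right at E10 (slope -0.50 ± 0.04, limma adjusted p = 0.0097). SLC30A10 was at 7.67 at E4 and at 6.31 on the left and 4.08 on the right at E10 (slope -0.49 ± 0.09, limma adjusted p = 0.031). Its pools of both ventricles were higher at E5 and E6, at 8.13 and 8.39, and its left and right E6 pools were at 7.76 and 6.80. The lower values were thus those of single-ventricle pools. The other named genes that fell were DOK5, SLC16A3, ADAMTS20, ELMOD1 (which acts on Arf GTPases), PCASP3, HTR2A and MGAT3 (a glycosyltransferase of N-glycans). By role group, 3 adhesion and guidance probe sets rose and 1 fell, 0 and 3 did in the group of channels, receptors and transport, 1 and 1 among secreted and matrix genes, 2 and 1 in metabolism, 4 and 6 among the others and 2 and 1 among those without a name.

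**Figure D2:**
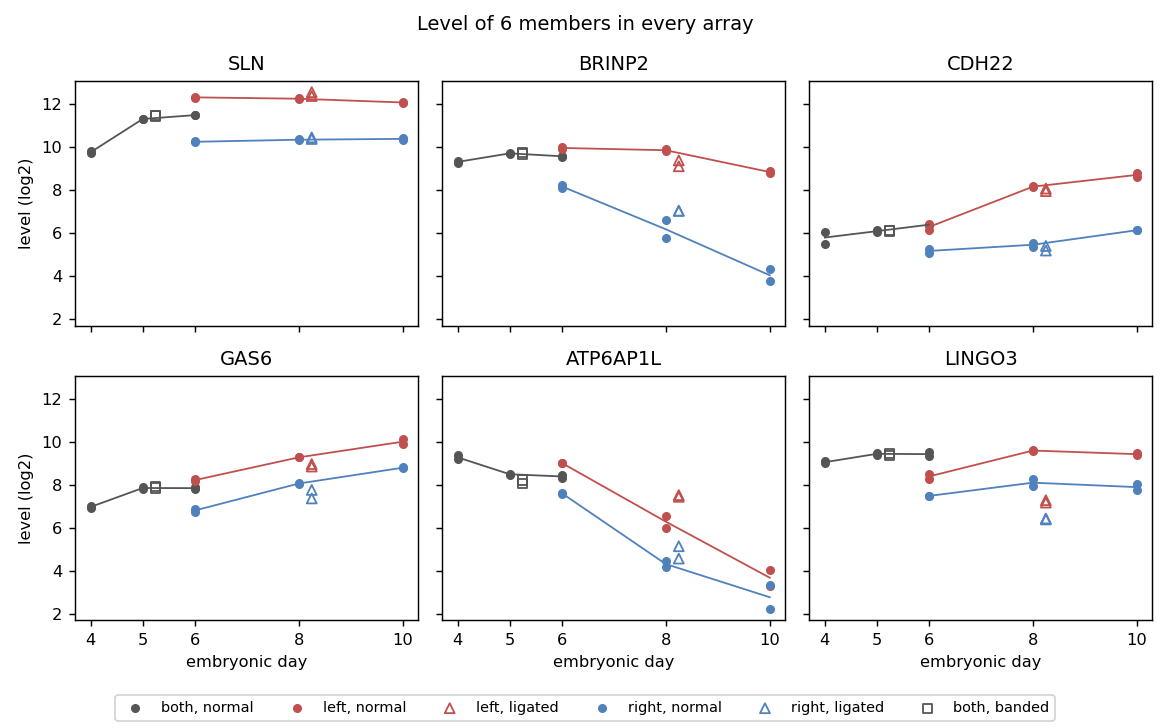
Level on the log2 scale against embryonic day for SLN, BRINP2, CDH22, GAS6, ATP6AP1L and LINGO3 (the probe set with the larger change after ligation). Each filled point is 1 array of a normal pool and lines join pool means; open triangles are ligated pools and open squares the banded pool, moved slightly to the right of their day. SLN is higher at E5 than at E4 and steady from E6 to E10 in the left and in the right pools. BRINP2 is lower with age on the right, CDH22 and GAS6 are higher with age, ATP6AP1L falls, and LINGO3 is low in the ligated pools.

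Within each ventricle, pools of 1 kind were compared between E6 and E10 by a rule of at least 2-fold with arrays that did not overlap. On the left 20 members were higher and 9 lower at E10, against backgrounds of 5.47% and 5.19%; on the right 14 were higher and 17 lower, against 5.21% and 6.6%. From E6 to E8 the left had 15 higher and 6 lower (backgrounds 3.23% and 2.32%) and the right 7 and 9 (2.64% and 2.16%). From E8 to E10 the left had 1 higher and 5 lower (1.05% and 2.39%) and the right 2 and 13 (0.767% and 2.74%). On the left more members were thus counted as higher from E6 to E8 than from E8 to E10. On the right more were counted as lower from E8 to E10 than from E6 to E8. The same pools had chosen the members, so these counts have no test. The right E10 pool also had the largest SD between arrays over the members, 0.256, and 12 members lay below the filter level in a right pool. Both ventricles met the rule upward at 13 members (2.45% of the 17594), among them GAS6, TSPAN7, SBSPON and the collagen-mRNA-binding LARP6, and downward at 8 (2.8%), among them ATP6AP1L, NRXN3, HTR2A and SLC16A3. TSPAN7 was low in the single-ventricle pools at E6, whose mean was at least 1 below the E6 pool of both ventricles at its 3 members. The same gap was found at LARP6 (-1.59), CDC42SE1 (-1.84), LRRC75A (-1.10) and both LINGO3 members (-1.34 and -1.49). All of these counted as higher on the left at E10, so the upward counts from E6 include members with low single-ventricle pools at E6. At 26 members neither side met the rule, against 82.9%, among them SLN, ABCC8, EPHA7, TMEM163 and PPP1R3B.

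The 2-fold rule was met on 1 side only at 18 members, and the difference between the sides has no test. At 7 members (2.93% of the 17594) it was met upward on the left, among them CDH22, CYP7B1, NTN4 and TGM4; the right pools of these 4 were also higher at E10, by 0.96, 0.84, 0.86 and 0.95. At 9 members (3.72%) it was met downward on the right, among them CADM2, DOK5, GJD2 and LYRM7; the left changed by -0.70, -0.95, -0.90 and 0.49 at these 4, so that at LYRM7 the sides moved apart. ADAMTS20 met it downward on the left, by -1.95, with -0.59 on the right. BRINP2 was counted among those lower on both sides.

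**Figure D3:**
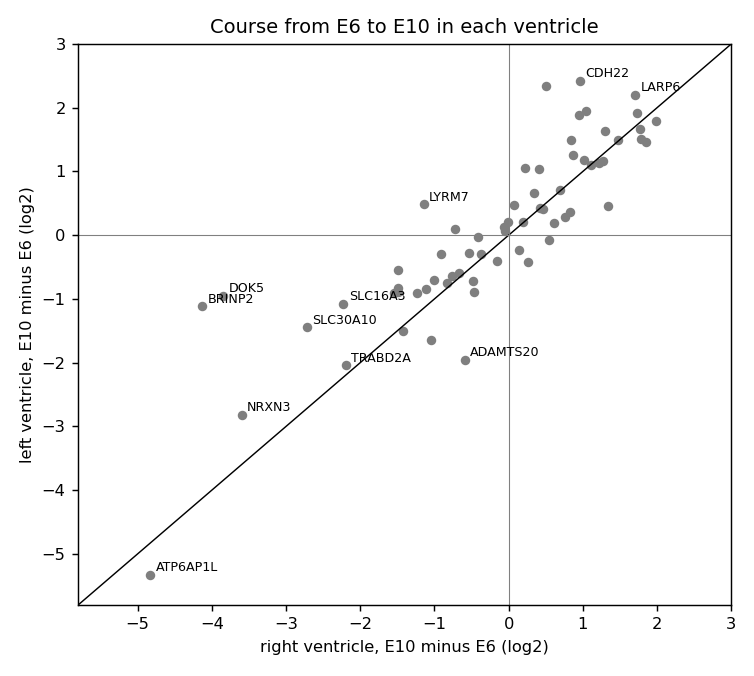
E10 minus E6 on the log2 scale in the left ventricle (vertical axis) against the right ventricle (horizontal axis) for the 65 members, 1 point each, with the line of equal change. BRINP2, DOK5 and LYRM7 lie above the line, where the right ventricle was lower at E10 than the left by more than at E6, and ADAMTS20 lies below it.

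Before E6, members differed between E4 and E5 mainly upward. At least 2-fold differences between the normal pools of both ventricles were found at 10 members, all higher at E5, against 3.1% of the 17594 higher and 1.23% lower. Between E5 and E6 it was 3, all higher (0.506% and 0.227%), and between E4 and E6 it was 15, all higher (3.46% and 1.13%). The pool of both ventricles at E6 lay between the left and the right pool at 49 members and above both at 16. It lay below both at 0. At E4, 49 members had already reached a level of 6. Banding changed no member by more than the limit of the rule, with extremes of 0.63 at ELMOD1 and -0.49 at TENM2.

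After ligation, 55 of 65 members on the left and 57 on the right did not meet the 2-fold rule against normal E8 of the same ventricle. In the left ventricle 1 member was at least 2-fold higher and 9 were lower with arrays that did not overlap, against 2.38% and 1.71% of the 17594. In the right ventricle 1 was higher and 7 were lower, against 1.74% and 2.14%. Those 7 were the members of TSPAN7, LINGO3, CDC42SE1 and LRRC75A, and the 9 on the left also held several probe sets of TSPAN7 and LINGO3. The counts are thus of probe sets and not of separate genes. Against the mean of normal E6 and E10 in place of E8, 3 were higher and 10 lower on the left and 5 higher and 4 lower on the right. These counts depend on the control used and have no share over all probe sets beside them. All 7 members lowered on the right against E8 had an E6 left-right mean at least 1 below the E6 pool of both ventricles. The E6 part of the other control was thus low for them. Against normal E8 the median change was -0.26 on the left and -0.03 on the right. The normal E8 pools had also chosen the members, by a high left and a low right value, so these changes have no test. Over both ventricles, whose mean the rule did not use, 0 of 65 passed in limma, with a lowest adjusted p of 0.386; 4 were higher and 13 lower at an unadjusted p under 0.05, against 5.83% and 5.06% of all. Of all probe sets 0.0393% were called higher and 0% lower. The spread of this fit, too, rests partly on normal differences that chose the members. A fit to the single-ventricle pools alone called 1 member lower, against 0.0492% of all probe sets called in either direction.

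The largest decreases after ligation in the left ventricle were those of CDC42SE1, LINGO3, TRIM36, LRRC75A and TSPAN7. CDC42SE1 was at 6.92 in the normal and 3.81 in the ligated left pool, and at 6.08 and 3.72 in the right. LINGO3, a leucine-rich repeat membrane protein, was at 9.60 and 7.24 on the left and 8.11 and 6.42 on the right at 1 probe set, and at 9.49 and 7.81 and at 7.95 and 6.61 at the other. The changes of TSPAN7, a tetraspanin, were -0.92, -1.64 and -1.73 on the left at its 3 probe sets and -1.23, -1.79 and -2.23 on the right. The member probe sets of LINGO3 and TSPAN7 were lower in both ventricles, and still higher on the left than on the right. Their other probe sets, 2 and 1, stayed below the filter level in every pool. At CDC42SE1 the brighter probe sets outside the set changed less on the left, by -1.60 and -0.85.

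TRIM36 was at 6.48 in the normal and 4.47 in the ligated left pool at 1 probe set, but its brighter member was at 7.97 and 7.45. LRRC75A was at 8.11 and 6.32 on the left and 6.26 and 5.08 on the right. EFNA5 was at 5.64 and 4.45 on the left, but its probe sets disagree: 3 others that reached the level of 6 changed by 0.10, -0.74 and -0.76, the first being the brightest. The remaining member that was at least 2-fold lower on the left had no gene name.

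The same probe sets were low in other pools of normal hearts. All 9 members lowered in the ligated left pool had a lower mean of the left and right pools at E6 than the E6 pool of both ventricles, by a median of 1.34, whereas the median over all 65 was 0.33 lower and over the 17594 0.02 lower. Such a lower mean was found at 51 of all 65 members and at 9526 of the 17594. An average of left and right log2 levels lies below the log2 level of their even mixture where the sides differ. The rule chose members that differ at E6, so the contrast of the members with the 17594 in this gap is partly set by the rule. All 9 also had a lower left pool at E6 than at E8, as had 39 of the 65 and 7763 of the 17594. The normal left E8 pool was also the baseline that picked the 9, which favours a lower E6 value. All 7 members lowered in the ligated right pool had an E6 left-right mean at least 1 below the E6 pool of both. That was so at 11 of all 65 members and at 305 of the 17594. CDC42SE1 was at 4.81 and 4.03 in the left and right E6 pools but at 6.26 in the E6 pool of both, and LINGO3 was at 8.39 and 7.49 but at 9.43. SLC30A10 and GATM also had an E6 left-right mean at least 1 below the pool of both, yet were higher after ligation. Over the 65 members this E6 gap and the mean change after ligation correlated at r = 0.61 (Spearman 0.50), and over the 17594 at 0.22 (0.30); the points share their pools, and the part of this gap in the ligation result was not tested.

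**Figure D4:**
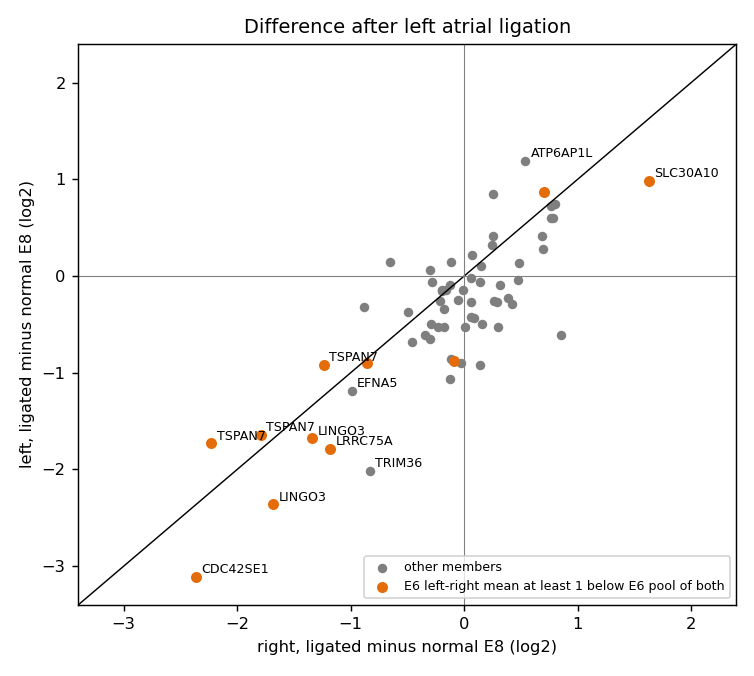
Ligated minus normal E8 on the log2 scale in the left ventricle (vertical axis) against the right ventricle (horizontal axis), 1 point for each of the 65 members, with the line of equal change. Labelled members have a gene name and met the 2-fold rule in a ventricle. Orange points (11 of the 65) have an E6 left-right mean at least 1 below the E6 pool of both ventricles. They include 6 of the 9 members lowered on the left.

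The largest increases after ligation in the left ventricle were those of ATP6AP1L, SLC30A10, GATM and 2 members with no gene name. ATP6AP1L was at 6.30 in the normal and 7.49 in the ligated left pool and at 4.33 and 4.87 in the right, the only member to meet the 2-fold rule upward on the left. SLC30A10 was at 6.47 and 7.46 on the left and at 5.64 and 7.27 on the right, where it met the rule. Both of these had a falling slope in the fit to the normal stage means, and their ligated levels lay between the normal E6 and E8 levels on the left. GATM was at 6.65 and 7.52 on the left, within the range of its normal pools of both ventricles, which reached 7.61 at E6. The 2 without a name were higher by 0.85 and 0.75.

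Levels of markers of other cells were set beside these results. In the ligated pair the log2 of the summed level was 16.28 on the left and 16.33 on the right for 8 epicardial and fibroblast genes, 13.86 and 14.07 for 6 endothelial genes, 17.05 and 17.14 for 5 red cell genes and 10.69 and 10.91 for 3 smooth muscle genes. For 2 neural genes it was 7.72 and 7.63, and for 2 white cell genes 8.02 and 8.59. The neuronal tubulin TUBB3 was lower after ligation by a change of -1.30 on the left and -0.99 on the right, and at E6 it was at 8.44 and 8.12 in the left and right pools against 9.39 in the pool of both. HAND1 of the left ventricle list was lower in these pools by more, with a change after ligation of -2.56 on the left and -2.85 on the right. Its E6 levels were 6.75 and 6.32 in the left and right pools against 8.06 in the pool of both. LINGO3, TSPAN7 and CDC42SE1 were lower in the same pools. The part of cells that express TUBB3 or HAND1 in their values was not tested. In the ligated pair these sums were nearly level between the sides or higher on the right, but a sum follows its brightest genes. CA2 of the red cell list was at 12.46 on the left and 11.71 on the right, and MYH11 of the smooth muscle list at 6.77 and 8.63. The part of other cells in the values of the members was not tested. The white cell gene PTPRC, the smooth muscle gene ACTA2 and the neural crest gene SOX10 reached at most 3.20, 3.03 and 2.66 in any pool. NR2F2, the only measured gene of the atrial list, was at 7.67 and 7.91 in the ligated pair, and at 4.86 and 7.92 at E6, 5.66 and 7.22 at E8 and 4.69 and 6.57 at E10 in the normal left and right pools. NR2F2 was thus higher by 2.01 in the left pool after ligation; its part in the ligation results was not tested.

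For 4 genes listed as right ventricular or outflow genes the summed level was 11.30 and 11.46 in the ligated left and right pools. It was 11.46 and 11.84 in the normal E8 pools, 11.80 and 11.67 at E6, and 11.55 and 12.11 at E10. None of the 65 members was among the 81 measured genes of 18 lists of cell type and pathway genes, of which 74 were tested. Of these 7 rose and 9 fell with age, and 1, CA2, was higher after ligation over both ventricles in limma. In the ligated left-right comparison 0 of the 74 passed in limma in either direction.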

How the data were processed

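The values are log2 expression, 1 column per array, used as the authors deposited them; the log2 scale was read from their range, 0.14 to 16.09. Both GCRMA and MAS5 are named, per the submitters' processing notes. Versions, and the method behind these values, are not stated in the sources. GCRMA, where used, presses dim signals towards a floor. The 2 arrays of a pool were averaged (n = 1 pool per condition). In GEO's annotation of the array, 27178 probe sets have 1 gene, 177 several and 11180 none listed; symbols were updated through RefSeq gene numbers.

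The 96 control probe sets were left out, and probe sets whose highest pool mean reached the 50th percentile, 4.09, were kept for tests: 20335 of 38439. limma 3.58.1 in R 4.3.3 (two-sided, Benjamini-Hochberg over all kept, threshold 0.05) fitted day to 5 stage means of the normal pools, and over 12 pools the condition as a block with a side term for normal and another for ligated pools. Each fit had 3 residual degrees of freedom. P-values do not measure variation between pools of a condition. On simulated pools for 20335 probe sets, the stage fit recovered 91 of 200 slopes of 0.25 and 174 of 200 of 0.5, and the fit for ligation over both ventricles 0 of 200 differences of 1 and 128 of 200 of 2.

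Differences between single pools were counted at 2-fold with arrays that did not overlap, without a test. The members, gene lists and role groups were chosen with earlier results of these data known. Named members are the 10 with the largest smallest left minus right difference, the 5 steepest each way with age, the 5 most changed each way in the ligated left pool, and the 5 largest and 5 smallest ligated left minus right; others are named as part of a role group or count. List genes were read at their brightest probe set. The number of arrays limits the precision.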

Additional observations from a re-analysis of the deposited data

Results flagged for a closer look

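At 6 of the named members all arrays of the ligated pool moved one way in the left ventricle and the opposite way in the right; the difference between the ventricles was not tested, and the normal E8 pools had also chosen the members. Lower on the left and higher on the right after ligation were BRINP2, by -0.61 and 0.86, SNX22, by -0.29 and 0.42, CSTA, by -0.22 and 0.39, and TGM4, by -0.43 and 0.085. Higher on the left and lower on the right were TRABD2A, by 0.15 and -0.65, and NRXN3, by 0.060 and -0.30. Over all 65 members 12 moved in opposite directions, 9 of them lower on the left and higher on the right. Of all 17594 probe sets that reached the level of 6, 9.52% moved in opposite directions and 4.45% in this one, which the choice of members by a high left and a low right E8 value favours.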

How the results depend on the processing

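The number of members depended on the limits: 37 at a left minus right of at least 1.0, 153 at 0.5, and 220 by E8 and E10 alone, of which 118 were at least 0.75 in the ligated pair (the last was chosen after seeing the data). At 1.5-fold, ligation counted 27 members on the left (8 higher, 19 lower) and 21 on the right (9 higher, 12 lower), and at 4-fold 3 and 2. These counts are given without a share over all probe sets. The stage trend called 8 members with no signal filter, which tested more probe sets, against 2.19% of all. Without E10 it called 0 members and 0 of all 20335 (limma, 30 members and 4485 of all at an unadjusted p under 0.05). Ligation over both ventricles called 1 member in the single-ventricle pools and 1 without the E6 pool of both, against 0.0492% of all in each. Without either array of each pool, the members numbered 59 to 65, of which 53 and 54 were among the 65 chosen with both arrays. Those at least 0.75 in the ligated pair were 51 to 53, and those changed by ligation 10 to 11 on the left and 8 to 11 on the right. These counts, too, are given without a share over all probe sets. With 1 array in a pool the condition that arrays do not overlap adds nothing to the 2-fold limit. The stage calls were 21 to 22, and both tests of the ligated pools called 0 members. Of all probe sets, the stage trend called 9.38% without array 1 and 9.79% without array 2. Array numbers did not pair the pools (correlations of deviations between -0.0686 and 0.0983 over 66 pairs of pools). A fit with the array number as a replicate block over single arrays treats technical arrays as units. In it the stage trend called 35 members, against 21.7% of all probe sets. The ligated left minus right called 19 members, against 0.3% of all, and ligation over both ventricles called 9, against 3.84% of all. No difference past a call limit turned its sign; of small ones, the ligated left minus right of CDC42SE1 went from 0.094 to -0.066 without array 1, that of SLC30A10 from 0.19 to -0.14 without array 2, and the left ligation change of LYRM7 from -0.090 to 0.014 without array 2.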
